A study of Mus musculus with 2 samples.

Results

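Transcripts of complement and blood clotting factor genes were compared in CD8+ regulatory T cells from mice labelled as lacking Tgfbr2 and Eomes and in wild-type cells. The set holds 9 genes of the 22609 that the count tables list: C3, C4b, Cfb, Cfp, Cd55 and Serping1 of the complement system, and F10, F5 and F13a1 of the clotting cascade. They were picked by symbol as complement components, regulators and clotting factors, because C4b and F10 had ratios among the highest of the comparison, so the values of the 9 genes describe these libraries and are not tested. One library came from Tgfbr2-/-Eomes-/- mice, called DKO, and 1 from wild-type (WT) mice. Both held total RNA of cells sorted directly from the spleens of naive mice aged 3 months. The labels do not give the sort markers, the number of mice in a library, or how Tgfbr2, a TGF-beta receptor subunit, and Eomes, the T-box factor of cytotoxic lymphocytes, were deleted. Neither genotype has a replicate, and the intervals given are exact 95% intervals of counting error alone.

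Complement is a cascade of plasma proteins that marks and lyses targets. In the classical pathway, C1q bound to antibody leads to cleavage of C4 and C2, in the alternative pathway factor B joins deposited C3, and both routes form enzymes that cleave C3. In clotting, activated factor X with its cofactor factor V turns prothrombin into thrombin, and factor XIII cross-links the fibrin that thrombin makes. The liver secretes most of these proteins into plasma, macrophages and other myeloid cells make several of them locally, and T cells carry CD55, which takes C3-cleaving enzymes apart on their own surface.

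The DKO library had 19661212 counts in genes and the WT library 22307065. Eomes had 180 CPM in the DKO library and 469 CPM in the WT library, 2.61-fold lower, and Tgfbr2 had 244 CPM in the DKO library and 357 CPM in the WT library, 1.46-fold lower. CPM is the gene's count scaled to library size by TMM. Reads of a deleted part of either gene cannot be separated from the rest in such counts. Of the 9 measured CD8+ T cell markers, such as Cd8a, Cd8b1 and Cd3e, 0 differed by 2-fold or more, and together they had 9013 CPM in the DKO library and 10115 CPM in the WT library.

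Of the 9 genes, 8 reached 1 CPM in at least 1 library, the level needed to enter the comparison, and 6 of these 8 were higher in the DKO library. Higher means a ratio of at least 2-fold with a counting interval that leaves out 1. The 6 were C4b, F10, Cfb, F13a1, C3 and F5, with ratios between 2.31-fold and 12.6-fold. Cfp and Cd55 stayed under 2-fold, 0 genes were lower, and Serping1 stayed below the minimum. The same limits called 11.6% of all 11735 genes with at least 1 CPM higher and 3.60% lower. The choice of the members used this contrast, so their count is not read against that share. The median log2 ratio was 1.48 over the 8 genes, 1.40 over all 9, and 0.00 over all genes compared. In bulk RNA, more cells of a type that makes a transcript and more of that transcript per cell cannot be told apart.

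**Figure D1:**
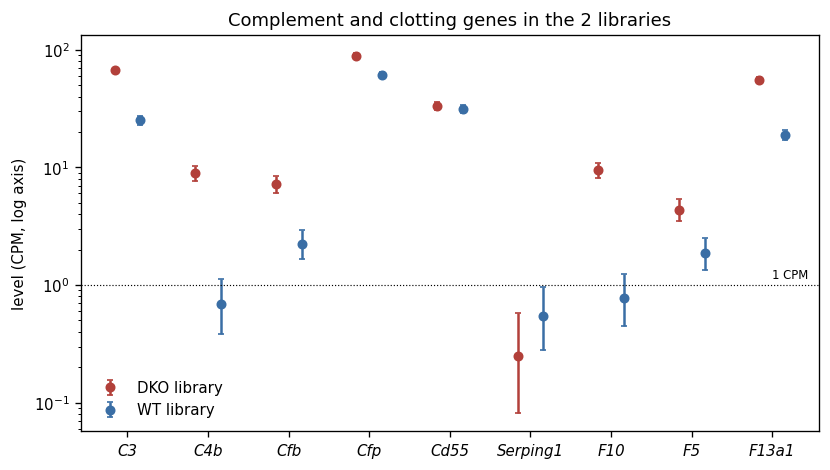
Level of each of the 9 genes (CPM, log axis) in the DKO library (red, left of each pair) and the WT library (blue, right), with exact 95% counting intervals as bars; the dotted line marks 1 CPM. C4b and F10 lie at 8.90 and 9.50 CPM in the DKO library and below 1 CPM in the WT library, and the intervals of Cd55 and Serping1 overlap between the libraries.

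C4b encodes complement C4, which is cleaved by the C1 complex and forms part of the C3-cleaving enzyme of the classical and lectin pathways. It had 178 counts (8.90 CPM) in the DKO library and 15 counts (0.684 CPM) in the WT library. The ratio was 12.6-fold (interval 7.68 to 23.8). The WT level was below the minimum that the comparison asks of at least 1 library, so C4b entered it through the DKO library. Its ratio, the kind of value it was picked for, was the 13th highest of the 9953 genes that reached 5 CPM, and 21 of the 2398 genes at 5 to 20 CPM in their higher library (0.876%) had a ratio of 10 or more.

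C4b has a near-identical neighbour, C4a, and the ratio of C4b depends on whether the copies are summed. C4a had 0 counts in the DKO library and 16 in the WT library, at least 4.86-fold lower when a floor of 3 counts stands for the 0, with an exact interval that starts at 3.52. Summed over both copies there were 178 counts (8.90 CPM) in the DKO library and 31 counts (1.41 CPM) in the WT library, a ratio of 6.21 (4.28 to 9.55). The sum was added after the counts of the copies had been seen. The GENCODE M21 transcripts of the copies align over 5367 bases and differ at 207 of them, an identity of 96.1%. Of the 5330 stretches of 50 bases, the read length, in the C4b transcript, 1875 (35.2%) also occur in C4a, so a read from them cannot be assigned to either copy, and 3455 are found in C4b alone. A coding stretch of 90 bases with 14 differing bases is shown because it is a place where reads of the copies can be told apart. It covers bases 2731 to 2820 of the C4b transcript and 2725 to 2814 of the C4a transcript, both from GENCODE M21, 5′ to 3′, and the capitals mark the bases that differ.
C4b: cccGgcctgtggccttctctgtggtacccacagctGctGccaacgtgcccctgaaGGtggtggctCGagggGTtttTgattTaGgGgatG
C4a: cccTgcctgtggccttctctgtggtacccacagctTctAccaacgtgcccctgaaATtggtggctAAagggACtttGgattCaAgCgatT
The labels do not give the strain of the mice, and what sets the split of counts between the copies was not tested.

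C3 is the protein on which all complement pathways meet, and its cleavage products coat targets and call in leukocytes. C3 had 1335 counts (66.8 CPM) in the DKO library and 553 counts (25.2 CPM) in the WT library, a ratio of 2.65 (2.40 to 2.93). Cfb, which encodes factor B, the protease of the alternative pathway, had 144 counts (7.20 CPM) in the DKO library and 49 counts (2.23 CPM) in the WT library, a ratio of 3.20 (2.32 to 4.56). Both were higher in the DKO library, with intervals that overlap each other. Cfp encodes properdin, which holds the alternative pathway enzyme together and is made by myeloid cells. It had 1777 counts (88.9 CPM) in the DKO library and 1336 counts (60.9 CPM) in the WT library. The ratio of Cfp, 1.46 (1.36 to 1.57), left out 1 but stayed under 2-fold.

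Neither regulator among the 9 genes was higher in the DKO library by these limits. Cd55, the decay-accelerating factor, had 668 counts (33.4 CPM) in the DKO library and 687 counts (31.3 CPM) in the WT library, a ratio of 1.07 (0.958 to 1.19). That interval includes 1. Serping1, the C1 inhibitor that also blocks kallikrein and activated factor XII, had 5 counts (0.250 CPM) in the DKO library and 12 counts (0.547 CPM) in the WT library. Its ratio of 0.480 had an interval from 0.126 to 1.39, so no difference was detectable at this depth.

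All 3 clotting factors were higher in the DKO library. F10 encodes factor X, the vitamin K-dependent protease that becomes the enzyme of the prothrombin-cleaving complex. It had 190 counts (9.50 CPM) in the DKO library and 17 counts (0.775 CPM) in the WT library, and a ratio of 11.9 (7.46 to 21.5), the 14th highest among genes with at least 5 CPM, which is the kind of value it was picked for. Like C4b, F10 entered the comparison through the DKO library. F5, the cofactor of factor Xa, had 87 counts (4.35 CPM) in the DKO library and 41 counts (1.87 CPM) in the WT library, a ratio of 2.31 (1.59 to 3.46). F13a1, the catalytic subunit of the fibrin-linking factor XIII, which monocytes, macrophages and megakaryocytes make, had 1106 counts (55.3 CPM) in the DKO library and 414 counts (18.9 CPM) in the WT library. Its ratio was 2.93 (2.62 to 3.29). The intervals of F5 and F13a1 overlap each other.

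How common such ratios were depended on abundance, graded by a gene's higher CPM. At 5 to 20 CPM, where C4b, F10 and Cfb lie, 18.7% were higher in the DKO library and 3.88% lower. At 20 to 100 CPM, where C3, F13a1, Cfp and Cd55 lie, 4.71% were higher and 0.690% lower. At 100 CPM or more, where none of the 9 lie, 2.17% were higher and 0.761% lower. At 1 to 5 CPM, where F5 lies, 35.0% were higher and 15.5% lower. The highest shares were thus among genes as weakly counted as F5.

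**Figure D2:**
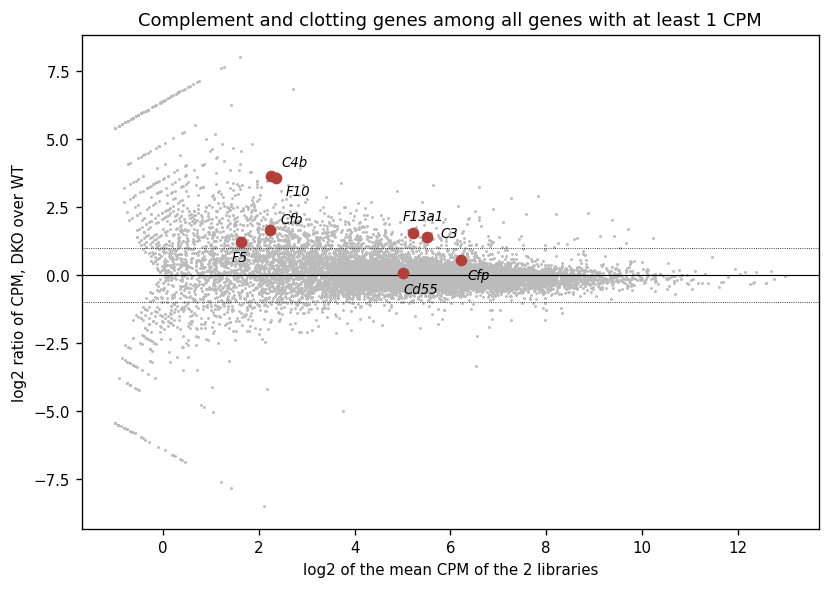
Log2 ratio of CPM, DKO over WT, against the log2 of the mean CPM of the libraries for the 11735 genes compared (grey) and the 8 of the 9 complement and clotting genes among them (red, named); dotted lines mark 2-fold. C4b and F10 lie near the upper edge of the cloud at their abundance, and Cd55 and Cfp lie between the lines; the slanting rows of grey points at far left are genes with 0 counts in 1 library, whose plotted ratio depends on the prior count of 0.5.

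Per kilobase of transcript, Cfp was the most abundant of the 9 genes in both libraries, with 54.3 CPM per kb in the DKO library and 37.2 CPM per kb in the WT library. In the DKO library F13a1, Cd55 and C3 came next, from 14.0 CPM per kb for F13a1 and 13.2 for Cd55 to a C3 level just below, with overlapping intervals. Below them, with intervals that did not overlap, lay F10 at 3.80, Cfb at 2.62, C4b at 1.66, F5 at 0.586 and Serping1 at 0.141 CPM per kb. These levels divide by the whole transcript, although 35.2% of the 50-base stretches of C4b, 13.3% of those of Cd55 and 2.08% of those of F10 also occur elsewhere. Non-unique reads were left out, so the C4b level may be understated in both libraries. The place of C4b below Cfb in the DKO library is therefore not settled. In the WT library Cd55 was second at 12.4 CPM per kb, ahead of C3 at 4.91 and F13a1 at 4.78 CPM per kb, whose intervals overlapped, and of Cfb at 0.812 CPM per kb. F10, Serping1, F5 and C4b followed between 0.127 and 0.310 CPM per kb. The interval of F10 lay below that of Cfb, while those of Serping1, F5 and C4b each overlapped the one above. F10 thus lay above Cfb in the DKO library and below it in the WT library. This swap restates the high ratio that F10 was picked for and is no further result.

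By distance in log2(CPM + 0.5) over the libraries, C4b and F10, both picked for high ratios, lay 0.139 apart. For both, the nearest gene was Fam64a, at 0.111 from C4b and 0.109 from F10, with 9.65 CPM in the DKO library and 0.684 CPM in the WT library. Map3k12, with 8.25 CPM in the DKO library and 0.729 CPM in the WT library, lay at 0.117 from C4b and 0.200 from F10. The distance rests on 1 library per genotype.

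The other genes of these systems, taken from lists of complement and clotting genes, differed in both directions. Of 97 such genes in the tables that are not among the 9, 39 had 0 counts in both libraries and 47 reached 1 CPM. Of the 47, 11 (23.4%) were higher in the DKO library and 6 (12.8%) lower, beside 11.6% and 3.60% of all genes compared, and their median log2 ratio was 0.41. Many of them are weakly counted, where both shares run higher.

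**Figure D3:**
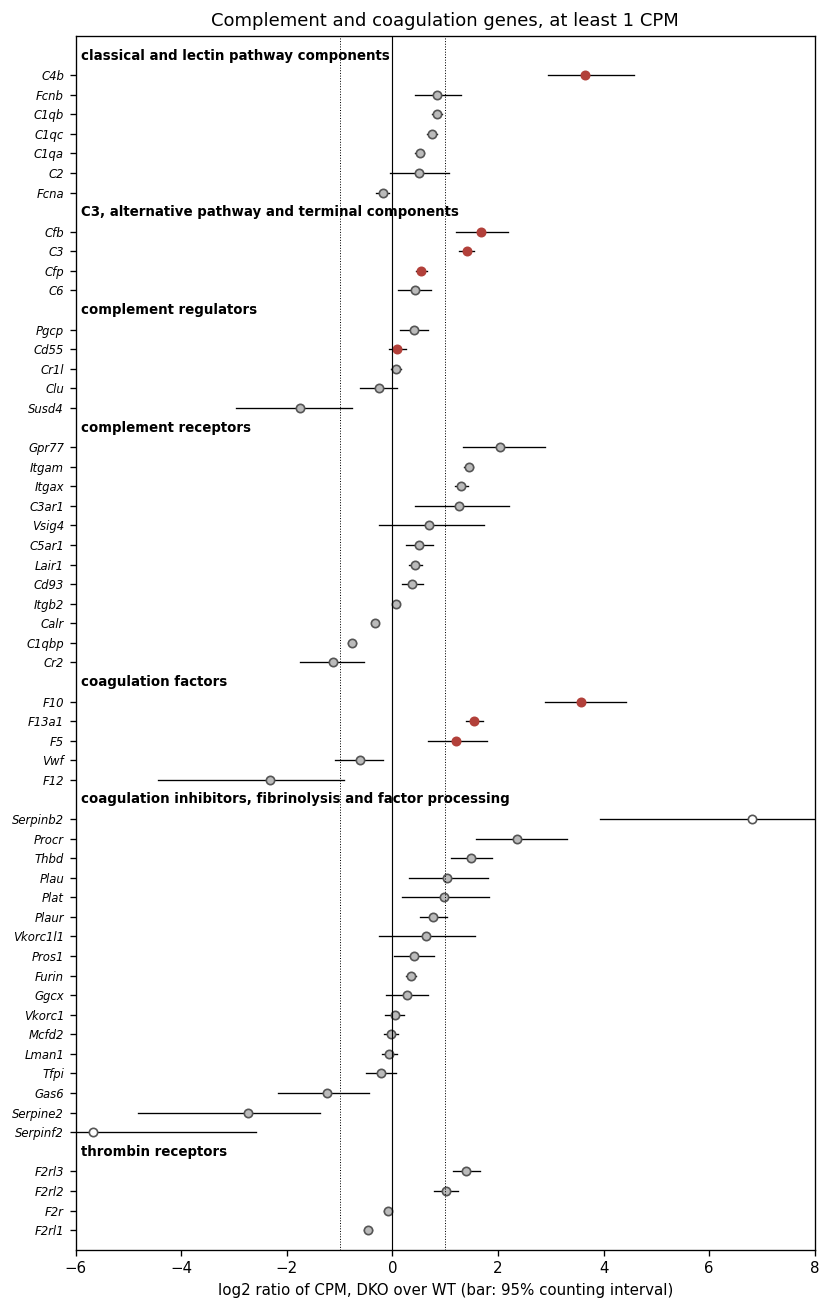
Log2 ratio of CPM, DKO over WT, of complement and clotting genes compared, a row per gene under the name of its list, with 95% counting intervals as bars; red points are the 8 compared of the 9 genes and grey points the other listed genes. C4b and F10 lie farthest right among genes counted in both libraries. Open circles are genes with 0 counts in 1 library, whose plotted ratio depends on the prior count, and dotted lines mark 2-fold.

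Of the first components of the classical pathway, the C1q chains were abundant in both libraries and stayed under 2-fold. C1qa had 116 CPM in the DKO library and 81.6 CPM in the WT library, a ratio of 1.43. C1qb had 118 CPM in the DKO library and 65.6 CPM in the WT library (ratio 1.80), and C1qc had 129 CPM in DKO and 76.6 CPM in WT (ratio 1.68). These chains are made mostly by macrophages. Of the lectin pathway's ficolins, Fcna had a ratio of 0.879 and Fcnb of 1.80, and the mannose-binding lectins Mbl1 and Mbl2 and their proteases Masp1 and Masp2 had 0 counts in both libraries. In the list of 17 classical and lectin genes 7 were compared, and C4b was the 1 that passed 2-fold. Of the components past C3, C6, which builds the membrane attack complex, had 9.40 CPM in the DKO library and 7.02 CPM in the WT library, while Hc (the gene of C5), C8a, C8b and C9 had 0 counts in both libraries.

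Among 19 regulators, 6 were compared, and of these 1, not reported here by name, was higher and 1 lower. Susd4, an inhibitor of C3-cleaving enzyme assembly, was the 1 lower gene, with 10 counts in the DKO library and 38 in the WT library, 3.35-fold lower. Cr1l, the mouse surface regulator also called Crry, had 83.2 CPM in the DKO library and 79.4 CPM in the WT library, a ratio of 1.05 (0.980 to 1.12). Like Cd55, it had an interval that includes 1. Clu, encoding clusterin, had a ratio of 0.834, and Pgcp, a carboxypeptidase not established as a complement regulator, of 1.33.

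Of the 12 complement receptors, all compared, 4 were higher and 1 lower, beside 11.6% and 3.60% of all genes compared. C3ar1, the receptor for the C3a fragment, had 38 counts in the DKO library and 17 in the WT library, a ratio of 2.41 (1.35 to 4.63). Gpr77, the C5a receptor also called C5ar2, had 73 counts in the DKO library and 19 in the WT library, a ratio of 4.13 (2.52 to 7.40). Itgam and Itgax, the alpha chains of complement receptors 3 and 4, had 162 and 100 CPM in the DKO library, against 59.5 and 40.5 CPM in the WT library. Their ratios were 2.72 and 2.48, while Itgb2, the beta chain that leukocyte integrins share, had a ratio of 1.04. Cr2, the C3d receptor of B cells and follicular dendritic cells, was the lower gene, with 34 counts in the DKO library and 82 in the WT library, 2.18-fold lower (1.46 to 3.38). The other receptors past 5 CPM were C5ar1 (ratio 1.42), Lair1 (1.35), Cd93 (1.30), Calr (0.796) and C1qbp (0.590), and none of these passed 2-fold.

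Of 18 coagulation factors, 12 had 0 counts in both libraries, among them F2, which encodes prothrombin, the substrate of the factor X and factor V enzyme. F3 (tissue factor), F7, F8, F9 and F11 and the fibrinogen chains Fgb and Fgg were also at 0 in both. By the floor of 3 counts, a count of 0 allows up to 0.150 CPM in the DKO library and 0.137 CPM in the WT library. The 5 factors compared were F10, F13a1 and F5, F12, with 4 counts in the DKO library and 24 in the WT library and 4.99-fold lower, and Vwf, with a ratio of 0.650. F12 encodes factor XII, which starts the contact pathway, and Vwf the platelet-tethering von Willebrand factor.

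Genes that restrain clotting or remove fibrin differed in both directions. Thbd, encoding thrombomodulin, had 200 counts in the DKO library and 78 in the WT library, a ratio of 2.80 (2.16 to 3.70). Procr, the endothelial protein C receptor that works with thrombomodulin, had 72 counts in the DKO library and 15 in the WT library, a ratio of 5.12 (2.99 to 9.89). Plau, the urokinase plasminogen activator, had a ratio of 2.04, and Serpinb2, its inhibitor, had 53 counts in the DKO library and 0 in the WT library, at least 19.4-fold higher against the floor of 3 counts, with an exact interval that starts at 15.2. Lower in the DKO library were Serpinf2, which encodes the plasmin inhibitor alpha-2-antiplasmin, Serpine2, which encodes a thrombin inhibitor, and Gas6, a vitamin K-dependent ligand of TAM receptors. Serpinf2 had 0 counts in the DKO library and 26 in the WT library, at least 7.90-fold lower against the same floor, with an exact interval that starts at 5.98. Serpine2 had 4 counts in the DKO library and 32 in the WT library, 6.62-fold lower. Gas6 had 17 counts in the DKO library and 45 in the WT library, 2.37-fold lower. Plaur, Pros1 and Tfpi stayed under 2-fold, with ratios of 1.71, 1.32 and 0.862.

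The genes that process clotting factors in the secretory pathway stayed under 2-fold. Ggcx, the carboxylase that acts on factor X, and Vkorc1, which recycles its vitamin K, had ratios of 1.21 (0.923 to 1.59) and 1.03 (0.911 to 1.16). Lman1 and Mcfd2, the receptor complex that carries factor V out of the endoplasmic reticulum, had ratios of 0.958 and 0.977. Furin, a protease that trims precursors, had a ratio of 1.27. Of the thrombin and protease receptors, F2rl2 and F2rl3 were higher, with ratios of 2.02 (1.73 to 2.37) and 2.64 (2.22 to 3.17). F2r, the main thrombin receptor, had 184 CPM in the DKO library and 196 CPM in the WT library, a ratio of 0.940, and F2rl1 had a ratio of 0.726. Platelets carry F2rl2 and F2rl3 in mice.

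Most genes next to these 9 on their chromosomes were neither higher nor lower by these limits. There were 70 listed genes within 4 places on either side, the 9 genes themselves left out. Places follow the GRCm38 order of the listed protein-coding genes and transcribed pseudogenes. Of the 70, 16 had 0 counts in both libraries and 49 reached 1 CPM, of which 2 were higher and 0 lower. Over all genes compared, 11.6% were higher and 3.60% lower, so most genes anywhere were neither. C4b and Cfb lie in the class III part of the major histocompatibility complex on chromosome 17. The 5 genes compared around C4b, which are Stk19, Dom3z, Atf6b, Fkbpl and Prrt1, had log2 ratios from -0.77 to 0.30. Around Cfb, its homologue C2 had a ratio of 1.42 (0.971 to 2.11), Rdbp of 1.66 and Skiv2l of 1.52. On chromosome 8, F10 lies between F7 and Proz, further vitamin K-dependent factor genes, and both had 0 counts in both libraries. The 5 genes compared there had log2 ratios from -0.35 to -0.03, and Mcf2l, below 1 CPM in both libraries, had 16 counts in the DKO library and 0 in the WT library.

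The 2 neighbours that were higher lay beside F13a1 and Serping1. Nrn1, beside F13a1 on chromosome 13, had 7.20 CPM in the DKO library and 0.638 CPM in the WT library, a ratio of 10.9, and Ly86, on the other side of F13a1, had a ratio of 1.86. Ube2l6, an interferon-induced gene beside Serping1 on chromosome 2, had 17.2 CPM in the DKO library and 3.01 CPM in the WT library, a ratio of 5.68.

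**Figure D4:**
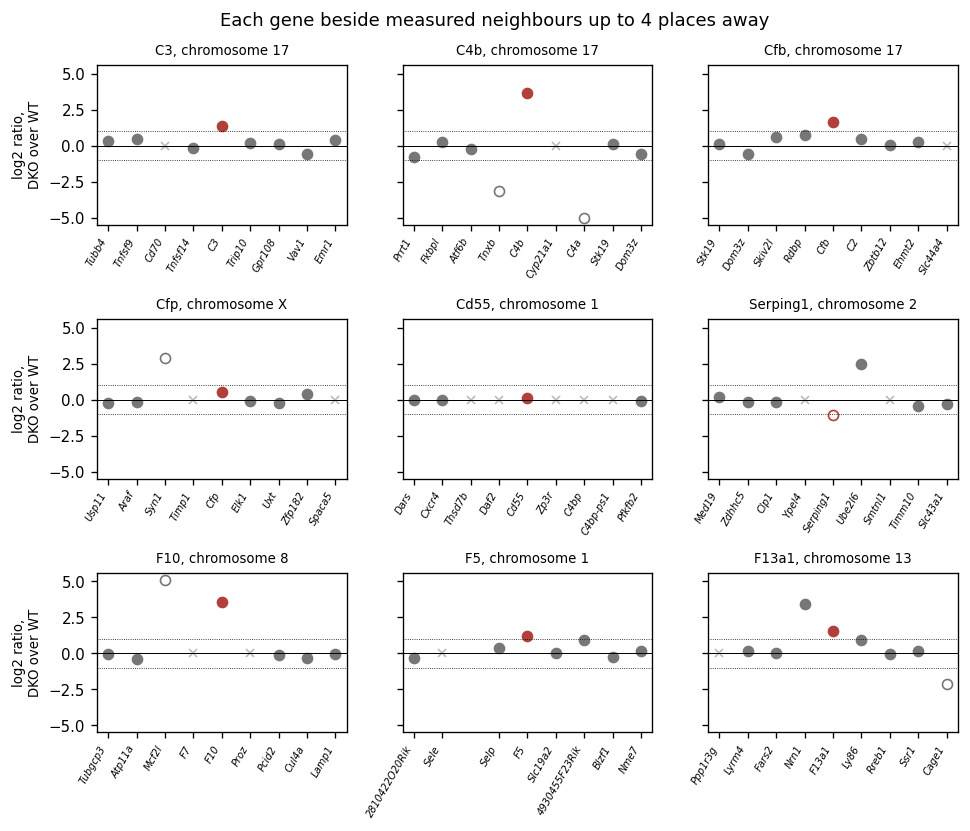
Log2 ratio of CPM, DKO over WT, of each of the 9 genes (red, position 0) and of listed genes up to 4 places away on either side in chromosome order (grey), a panel per gene. Dotted lines mark 2-fold, open circles are genes under 1 CPM in both libraries, and crosses at 0 are genes with 0 counts in both. C4b and F10 are the compared genes above the upper line in their panels, and the open circle above F10 is Mcf2l, whose plotted ratio depends on the prior count.

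RefSeq promoter sequences (GRCm38.p6) were found for 6 of the 9 genes: C3, Cfp, Cd55, F5, F10 and F13a1, the last with 2 start sites. The 250 bases upstream of the start are printed for F10, which had the highest ratio of the 6, and for F13a1 and C3, which had the highest ratios of the 3 genes that held a match to one of the motifs searched. The capitals mark the match, and each sequence is read 5′ to 3′ on the strand of the gene.
F10, chr8:13037058-13037307, plus strand: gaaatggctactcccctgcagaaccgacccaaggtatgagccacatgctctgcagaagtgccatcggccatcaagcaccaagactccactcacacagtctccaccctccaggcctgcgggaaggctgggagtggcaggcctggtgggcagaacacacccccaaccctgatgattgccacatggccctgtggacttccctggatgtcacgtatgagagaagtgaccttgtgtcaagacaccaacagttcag
F13a1, chr13:37050245-37050494, minus strand: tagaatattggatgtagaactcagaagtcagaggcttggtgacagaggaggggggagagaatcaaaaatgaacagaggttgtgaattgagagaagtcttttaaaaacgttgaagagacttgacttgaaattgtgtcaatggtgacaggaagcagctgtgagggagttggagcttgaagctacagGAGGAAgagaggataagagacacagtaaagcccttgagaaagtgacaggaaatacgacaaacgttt
C3, chr17:57228137-57228386, minus strand: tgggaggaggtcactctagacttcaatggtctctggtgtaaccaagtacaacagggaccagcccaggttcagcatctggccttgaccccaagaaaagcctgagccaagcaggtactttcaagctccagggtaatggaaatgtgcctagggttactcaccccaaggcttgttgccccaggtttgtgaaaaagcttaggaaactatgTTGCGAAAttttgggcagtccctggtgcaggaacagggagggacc
Motifs were searched on both strands. In C3 the letters TTGCNNAA, a pattern that C/EBP factors bind, lay 45 to 38 bases before the start, and 9.56% of 32851 promoter windows of this length hold them. In the first start site of F13a1 the letters GAGGAA, a PU.1 pattern, lay 66 to 61 bases before the start, and 23.3% of windows hold them. F5 held CAGACA, a Smad pattern, 102 to 97 bases before its start, as do 17.1% of windows. The letters AGGTGT of T-box factors such as Eomes (11.8% of windows), TTCNNNGAA of STAT factors (7.02%) and the interferon-stimulated response element (2.98%) were not found in the windows of the 6 genes. None of the motifs searched lay in the windows of F10, Cfp and Cd55. No motifs overlapped.

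Interferons raise C3, C4 and factor B in many cells, so their usual targets were set beside them. Of 30 interferon response genes, all compared, 7 were higher and 0 lower, beside 11.6% and 3.60% of all genes compared. Their median log2 ratio was 0.62. Cxcl10, a chemokine, had 8.40 CPM in the DKO library and 1.69 CPM in the WT library, a ratio of 4.93. Ciita, the switch of class II antigen presentation, and Rsad2, an antiviral enzyme, both had ratios of 3.01, and Oasl2 had a ratio of 2.10. B2m, the most abundant of them, had a ratio of 1.09. The part of interferon in the ratios of the complement genes was not tested.

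Some markers of other cell types were higher in the DKO library too. Beside the marker counts here and below stand 11.6% higher and 3.60% lower over all genes compared, with larger shares among weakly counted genes. Of 20 monocyte and macrophage markers, all compared, 5 were higher and 0 lower, with a median log2 ratio of 0.56, and summed they had 3989 CPM in the DKO library and 3022 CPM in the WT library. The highest ratios past 5 CPM were those of Chi3l3 (5.85), Spic (2.45), Slc40a1 (2.20) and Cd68 (2.10), and the most abundant, Ly6c2, had a ratio of 1.01. The part of macrophages in the ratios of the 9 genes was not tested.

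Neutrophil and dendritic cell markers differed by more. Of 13 neutrophil markers 8 were higher and 0 lower, with a median log2 ratio of 2.03 and summed levels of 2999 CPM in the DKO library and 706 CPM in the WT library. Lcn2 (9.50), Ngp (7.49), Ltf (7.15) and Mmp8 (6.54) had the highest ratios, and S100a9, the most abundant, had 4.08. Of 14 dendritic cell markers 9 were higher and 0 lower, with a median of 1.33 and summed levels of 4454 CPM in the DKO library and 1701 CPM in the WT library. Xcr1 (3.98), Tcf4 (3.73), H2-Aa (3.21) and H2-Ab1 (2.73) led those past 5 CPM, and Cd74, the most abundant, had 2.59. The part of these cells in the ratios was not tested.

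Platelets store factor V and factor XIII, and their markers were counted at low levels. Of 10 compared, 7 were higher and 0 lower, with a median log2 ratio of 2.02 and a summed level of 47.8 CPM in the DKO library and 18.8 CPM in the WT library. Pf4 had 6.90 CPM in the DKO library and 1.91 CPM in the WT library, a ratio of 3.57, and Itga2b a ratio of 2.99. Clec1b had a ratio of 14.5 (7.26 to 39.6), and Gp5 had 25 counts in the DKO library and 0 in the WT library. The most abundant, Ppbp, had a ratio of 1.34. The part of platelets in the ratios was not tested.

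Hepatocytes, the main source of plasma complement and clotting factors, were checked by 10 markers. Alb, Apoa1, Ttr, Serpina1a, Serpina1b, Ahsg, Fgb and Cps1 had 0 counts in both libraries. The summed level was 103 CPM in the DKO library and 79.3 CPM in the WT library and came almost wholly from Trf, a transferrin gene with a ratio of 1.29. Of 16 stromal and endothelial markers 3 were compared and 2 were higher, with a median log2 ratio of 2.10 and a summed level of 113 CPM in the DKO library and 82.3 CPM in the WT library, most of it Pecam1 (1.34). Col1a2, Lum, Ccl19, Pdpn, Emcn and Tek were at 0 in both. Col1a1 had 23 counts in the DKO library and 1 in the WT library.

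Markers of other lymphocytes, granulocytes and red cells gave mixed counts. Of 11 CD4+ and FOXP3+ T cell markers 8 were higher and 0 lower (median log2 ratio 1.93, summed 410 CPM in the DKO library and 208 CPM in the WT library), led past 5 CPM by Tnfrsf4 (7.03), Cd40lg (6.04) and Cd4 (4.53). Of 12 NK cell markers 5 were higher and 1 lower (median 0.76, summed 2487 CPM in DKO and 1581 CPM in WT). Gzma had a ratio of 4.91. The lower gene was Eomes, which the DKO label names as deleted. Cytotoxic lymphocytes other than NK cells also express Eomes, so the list is not particular to NK cells. Of 6 basophil and mast cell markers 5 were higher, with Prss34 at 5.27 and Mcpt8 at 4.40 (median 1.89, summed 48.3 CPM in DKO and 15.4 CPM in WT). B cell markers split, with 1 of 8 higher and 1 lower (median 0.57, summed 103 CPM in DKO and 141 CPM in WT), and 2 of 7 plasma cell markers were higher and 1 lower (median 0.44, summed 553 CPM in DKO and 308 CPM in WT). Of 3 erythroid markers compared 2 were higher (median 1.04, summed 12.7 CPM in DKO and 3.87 CPM in WT), and the haemoglobin genes Hba-a1, Hba-a2, Hbb-b1 and Hbb-b2 were at 0 in both. The part of these cells in the ratios was not tested.

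**Figure D5:**
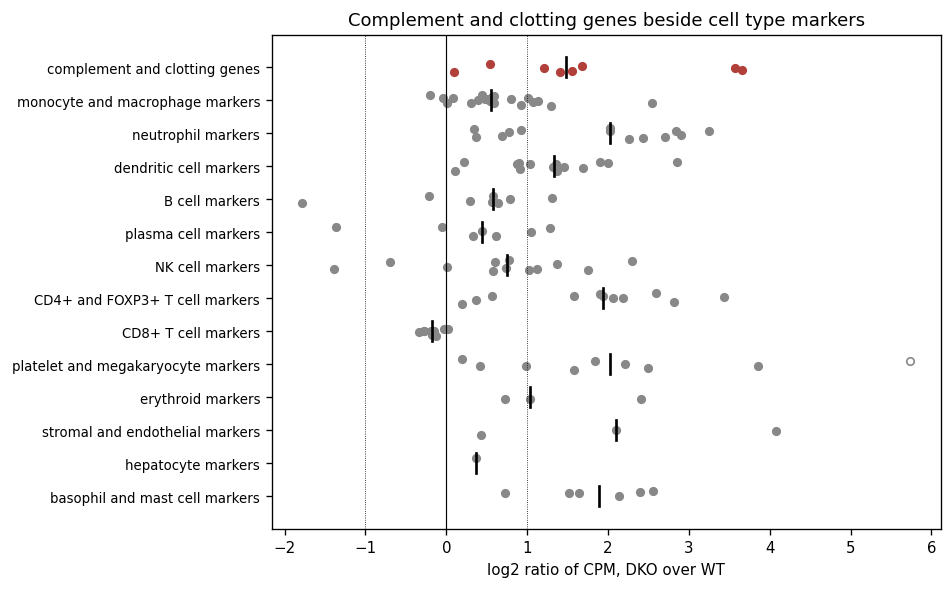
Log2 ratio of CPM, DKO over WT, of the compared markers of 13 cell types (grey points, open where 1 library had 0 counts; 1 platelet marker is not shown), a row per cell type, with a bar at the median of each whole list, and the complement and clotting genes compared (red) in a row of their own; dotted lines mark 2-fold. The CD8+ T cell markers lie between -0.34 and 0.02, mostly just below 0. Markers of neutrophils, dendritic cells, CD4+ and FOXP3+ T cells, platelets, and basophils and mast cells lie mostly to the right of 2-fold. So do the few erythroid and the few stromal and endothelial markers compared.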

How the data were processed

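Total RNA libraries of sorted cells were sequenced as single-end reads of 50 bases, per the labels' protocols, 1 per genotype. The files the authors deposited hold raw counts, 1 whole number for each gene. Named without roles in the submitters' processing notes are mm9, TopHat2 2.0.8b, HTSeq and bcl2fastq; the sources used here give neither annotation nor strand setting, so reads of overlapping genes may not be told apart. In GENCODE M21, which need not be the annotation used, Cfb overlaps the protein-coding Gm20547, Cd55 and F13a1 overlap antisense genes, and F5 overlaps Gm16548, which had 0 counts in both libraries. Besides C4b, 13.3% of the 50-base stretches of Cd55 occur in Cd55b (Daf2 in the tables, 0 counts in both libraries) and 2.08% of those of F10 elsewhere. Rows that name no gene held 69.5% of the DKO total and 71.5% of the WT total, mostly non-unique alignments (64.8% for DKO and 66.4% for WT), and were left out.

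Counts were scaled by TMM (edgeR 4.0.16, R 4.3.3; factors 1.02 for DKO and 0.983 for WT) and given as CPM. Log2 ratios used a prior count of 0.5. Intervals are exact Clopper-Pearson 95% intervals of the DKO share of a gene's counts, turned into ratios (scipy 1.17.1); reads are not independent molecules, so they and the floor of 3 counts cover counting error only. A gene was compared when it reached 1 CPM in 1 or both libraries. No p-value was computed, since 1 library per genotype leaves no spread to test against. Length is that of the longest protein-coding GENCODE M21 transcript (GRCm38); RefSeq GRCm38.p6 gave gene order and promoters, and 98.9% of the tables' symbols matched it. No mm9 coordinates are given. Motif and alignment steps used Python 3.11.15 and Biopython 1.88. The counting procedure was tried on simulated Poisson counts, which hold counting error alone and no difference between animals. The strongest simulated decrease was not scored.

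The 9 genes and the 21 gene lists were chosen with earlier results of these data known. Named genes were the members, the targeted genes, the further genes of complement and clotting lists with at least 5 CPM or past 2-fold, and up to 4 genes with the largest ratio and the most abundant gene of the other lists. Genes with 0 counts, C2, the neighbours, and Clec1b, Gp5 and Col1a1 were named outside this rule after their values were seen, as were some list members left under the limits. Some genes that the rule names are not reported here or shown in the figures. Alternatives were scaling by total counts, by DESeq2 1.42.0 size factors or by CD8+ T cell markers, a prior count of 5, no filter or 5 CPM, limits of 1.5-fold or 4-fold or the fold alone, and C4a and C4b summed.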

Additional observations from a re-analysis of the deposited data

How the results depend on the processing

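The direction of C4b, F10, C3, Cfb, F5, F13a1, Cfp, Cd55 and Serping1 was kept under each scaling and prior count tried, and 33 of 37 alternative ratios of these genes stayed within the counting interval. Scaling by CD8+ T cell markers raised the median log2 ratio of all genes by 0.17, and with it C3 to 1.57, Cfp to 0.71 and Cd55 to 0.26. Summing C4a with C4b, an alternative chosen after seeing the data, lowered the log2 ratio of C4b to 2.64. The number of the 9 genes that were higher was 6 in most settings, 5 with a minimum of 5 CPM and 2 with a 4-fold limit. Over all genes, 2072 were higher and 988 lower at 1.5-fold, and 515 and 139 at 4-fold. These counts were 738 and 147 with a minimum of 5 CPM, and 1987 and 693 without a filter. Of 384 further values, which are counts for the gene lists and some medians over all genes, 336 were kept. A list count was kept when it stayed within 1.5 times, and unchanged counts of 0 are included. No paired analysis was possible because each genotype has 1 library, and for the same reason no replicate could be left out. The ratios of C4b and F10 rest on 15 and 17 WT counts, which set the width of their intervals, and Serping1, with 5 counts in the DKO library and 12 in the WT library, was too weakly counted to show a 2-fold difference. Whether libraries from other mice of these genotypes would give these ratios was not measured.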

Other observations

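Some genes were counted in 1 library alone. There were 144 genes with at least 20 counts in the DKO library and 0 in the WT library, and 59 of which the reverse held. At 100 counts or more, 1 gene was counted in the DKO library alone and 3 in the WT library alone. Serpinb2, with 53 counts in the DKO library, and Serpinf2, with 26 in the WT library, were the complement and clotting genes among them. Ifi44, an interferon response gene, had 92 counts in the DKO library and 0 in the WT library, at least 33.6-fold higher against the floor of 3 counts, with an exact interval that starts at 26.8.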
